A study of Mus musculus with 41 samples.

Results

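*Fgf1*, *Fgf2* and *Fgfr3*, listed as FGF1, FGF2 and FGFR3 in the Ct table, were 3 of 54 mouse target genes assayed by TaqMan qPCR (Fluidigm array) in skin from 41 mice. They were taken by name from the table, with every mouse of the 6 labelled groups. All mice were female NSG animals, an immunodeficient strain without T, B and NK cells. At 1 week there were 7 sham mice, 6 mice with the P nanomesh (labelled P nano-mesh) and 7 mice with P+eMSC (labelled P nano-mesh +eMSC), and at 6 weeks there were 6 sham, 8 P and 7 P+eMSC mice. P is a degradable mesh electrospun from PLACL, a copolymer of lactic acid and caprolactone, and sutured under the abdominal skin, and in P+eMSC mice human SUSD2+ endometrial mesenchymal stem cells (eMSC) were placed on the same mesh. The eMSC came from several donors, each giving 1 cell line, were expanded with bFGF, the protein that FGF2 encodes, and were labelled with an mCherry lentivirus. Some of the animals had also served in an earlier study. The age of the mice and the content of the sham operation were not given in the sources used here.

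Fibroblast growth factors are signalling proteins that bind heparan sulphate and switch on receptor tyrosine kinases at the cell surface. *Fgf1* (acidic FGF) and *Fgf2* (basic FGF) encode ligands that lack a classical secretion signal and are known for their action on fibroblasts and endothelial cells, in wound repair and in the growth of new vessels. *Fgfr3* encodes a receptor of the family and is known in skin for its expression in keratinocytes of the epidermis and hair follicle. The comparisons asked how these genes stood in P and P+eMSC mice relative to the sham controls, whether P+eMSC differed from P, and whether 6 weeks differed from 1 week.

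The level of a gene is given here as the Ct of 18S minus the Ct of the gene in the same mouse, so that a less negative value is a higher level and 1 unit is 1 PCR cycle on the log2 scale. Levels were compared between mice for the same gene and not between genes, because each TaqMan assay has its own efficiency. The Ct of *Fgf1* lay between 13.99 and 20.75 in 40 mice, that of *Fgf2* between 13.3 and 20.6, and that of *Fgfr3* between 13.6 and 22.8. The 18S Ct ranged from 6.20 to 7.79. These were bulk tissue samples, in which fewer cells of a type and less RNA per cell cannot be told apart.

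A few mice stood apart. Mouse 52 (P, 6 weeks) had no Ct for any of the 3 genes, held 31 of the 40 undetected values of the whole panel and had the highest 18S Ct, 7.79, so that 7 P mice gave values at 6 weeks. Mouse 53, also P at 6 weeks, was the lowest of its group for all 3 genes. Its mean level over the 23 genes detected in every mouse, -10.68, was the lowest of that group after mouse 52 at -17.11. In mouse 400 (sham, 1 week) *Fgf1* was the highest of the group and *Fgf2* the lowest. The label of mouse 2356 is P at 6 weeks, whereas the fold changes deposited for the 3 genes matched a calculation against the 1 week sham controls and lay up to 0.93 (log2) from one against the 6 week sham controls. It was kept at 6 weeks. The mice carried numbers either below 1000 or above 2000, and each group held mice of both series, from 2 to 5 mice a series. What the series stand for was not given in the sources used here. Skin markers were present, with the epithelial cadherin *Cdh1* detected in every mouse but mouse 52 and the summed level of 5 collagen genes of fibroblasts between -6.66 and 1.02 in every mouse but mouse 52, at -10.66.

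*Fgf1* was lower in P than in sham mice at 6 weeks, and this was the only one of the 27 comparisons of these 3 genes that passed the test. In the 6 week sham mice the *Fgf1* level had a lowest value of -10.11, a median of -8.26 and a highest of -7.78. The 7 P mice at 6 weeks ran from -13.87 through a median of -10.31 to -8.26. The groups overlapped, with 4 of 7 P mice below every sham mouse and 3 of 6 sham mice above every P mouse. The Hodges-Lehmann shift, the median of all differences between a mouse of one group and a mouse of the other, was -1.65 (log2), with a 95% interval from -4.01 to -0.32, or 0.318 of the sham level on the linear scale. The Mann-Whitney U test, exact and two-sided, gave p = 0.0221 and, adjusted over the 54 genes by the Benjamini-Hochberg method, 0.0997. In this comparison 12 of the 54 genes passed at an unadjusted exact p below 0.05, all lower in P, which is 22.2% of the panel, and the median shift of all 54 genes was -0.83. These panel values include the low levels of mouse 52 for the genes it had a Ct for, whereas the *Fgf1* shift does not. Without mouse 52, 12 genes of the panel passed. The median of the 23 genes detected in every mouse, called the panel median where it serves as reference, was also used in place of 18S. With it the *Fgf1* shift was -0.92 with an exact p of 0.445. The call held when each of the 14 mice was left out in turn, with exact p from 0.00866 to 0.0480. Mouse 52 is counted among the 14 but has no *Fgf1* value, so that leaving it out changes nothing. The call also held with mouse 2356 counted at 1 week (shift -1.40, exact p = 0.0411). Among mice numbered below 1000 the shift was -0.93 (4 against 4, exact p = 0.343), and among those above 2000 it was -3.05 (3 against 2, exact p = 0.2, the smallest these mice allow).

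**Figure D1:**
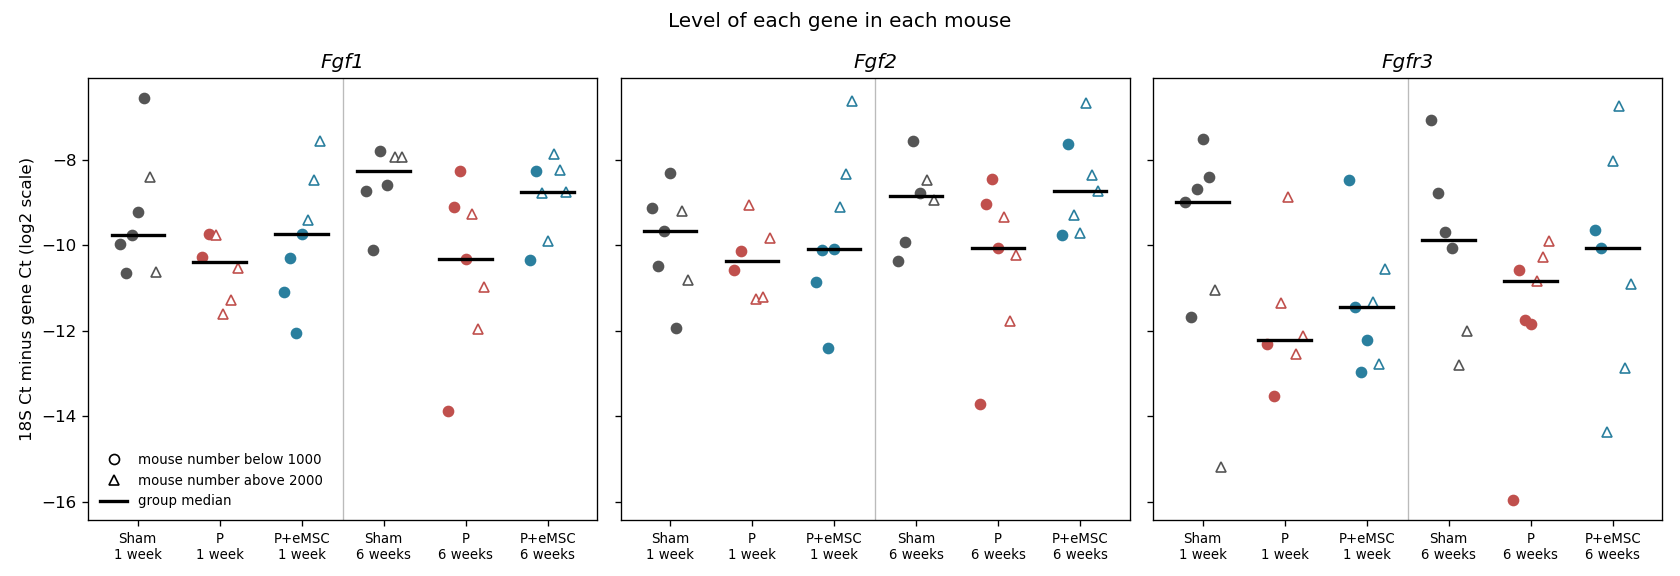
Level of *Fgf1*, *Fgf2* and *Fgfr3* in each mouse, as 18S Ct minus gene Ct on the log2 scale, by treatment and week. Filled circles are mice numbered below 1000, open triangles those above 2000 and bars the group medians, and mouse 52 has no value. The 6 week P mice reach down to -13.87 for *Fgf1*, and *Fgfr3* spreads more widely than either ligand within most groups.

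At 1 week the *Fgf1* level of the sham mice ran from -10.64 through a median of -9.75 to -6.56, the last in mouse 400. P mice ran from -11.62 through -10.39 to -9.74 and P+eMSC mice from -12.06 through -9.73 to -7.55. The 3 groups overlapped. P stood at a shift of -0.98 from sham (95% interval -3.18 to 0.22, exact p = 0.234), P+eMSC at -0.44 (-2.31 to 1.30, exact p = 0.71), and neither passed the test. For P against sham at 1 week, 2 of the 54 genes passed, or 3.7%, and for P+eMSC against sham none did, or 0%. At 6 weeks P+eMSC mice ran from -10.33 through -8.76 to -7.86, with 1 of the 7 below every sham mouse and none above every sham mouse. Their shift from sham was -0.30 (-1.76 to 0.72, exact p = 0.366), in a comparison where 0% of the panel passed.

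Against P, the P+eMSC mice had higher *Fgf1* and *Fgf2* medians at 6 weeks, without passing the test. For *Fgf1*, 2 of 7 P+eMSC mice lay above every P mouse and 3 of 7 P mice below every P+eMSC mouse. The shift of *Fgf1* was 1.39 (95% interval -0.03 to 3.69, exact p = 0.0728, adjusted over the 54 genes 0.262). That of *Fgf2* was 1.50 (-0.27 to 3.94, exact p = 0.0530, adjusted 0.209). In this comparison 10 of 54 genes, 18.5%, passed at an unadjusted p, all of them higher in P+eMSC, and the median shift of the panel was 1.15. These panel values include mouse 52 where it had a Ct, and without it 8 genes passed. The *Fgf1* and *Fgf2* shifts do not include mouse 52. With the panel median as reference the shifts of *Fgf1* and *Fgf2* were 0.42 and 0.08. Both genes moved past the threshold when the undetected values of mouse 52 were ranked lowest (exact p = 0.0401 for *Fgf1* and 0.0289 for *Fgf2*), and at an unadjusted p in limma (0.0390 and 0.0322). At 1 week the shift of P+eMSC from P was 0.67 for *Fgf1* (-0.81 to 2.22, exact p = 0.295) and 0.61 for *Fgf2* (-1.16 to 2.88, exact p = 0.445), and 0% of the panel passed. In the limma interaction with the week, the shift of P+eMSC from P changed from 1 to 6 weeks by 0.93 ± 1.12 (SE) for *Fgf1* and 1.08 ± 1.16 (SE) for *Fgf2*, each with an adjusted p of 0.550. All 54 genes had a change above 0 there, with a panel median of 1.70, which includes mouse 52 for the genes it had a Ct for.

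The levels of *Fgf2* in sham mice ran from -11.94, in mouse 400, through -9.67 to -8.31 at 1 week and from -10.37 through -8.85 to -7.54 at 6 weeks. In P mice they ran from -11.25 through -10.35 to -9.05 at 1 week and from -13.70 through -10.05 to -8.45 at 6 weeks. P+eMSC mice had the highest single values, -6.60 at 1 week (mouse 2358) and -6.66 at 6 weeks (mouse 2351), with medians of -10.08 and -8.72. At 6 weeks 3 of the 7 P+eMSC mice lay above every P mouse, and 4 of the 7 P mice lay below every P+eMSC mouse. Relative to sham, the shift of P was -0.56 at 1 week (95% interval -2.02 to 0.99, exact p = 0.534) and -1.20 at 6 weeks (-3.33 to 0.47, exact p = 0.181). The shift of P+eMSC from sham was 0.07 at 1 week (-1.72 to 2.50, exact p = 0.902) and 0.32 at 6 weeks (-1.0 to 2.03, exact p = 0.534). Every interval for *Fgf2* held 0.

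*Fgfr3* differed most from mouse to mouse. Its SD within groups was 2.16 (log2, 34 degrees of freedom) against 1.34 for *Fgf1* and 1.40 for *Fgf2*, which placed the ligands as the 5th and 8th least variable of the 54 genes and the receptor as the 35th, with a panel median SD of 2.01. Sham mice ran from -15.18 through a median of -8.98 to -7.49 at 1 week and from -12.80 through -9.87 to -7.06 at 6 weeks. P mice ran from -13.52 through -12.22 to -8.86 at 1 week and from -15.97 through -10.83 to -9.90 at 6 weeks. P+eMSC mice ran from -12.96 through -11.43 to -8.46 and from -14.37 through -10.05 to -6.74. The shift of P from sham was -2.11 at 1 week (95% interval -4.54 to 2.18, exact p = 0.138) and -1.32 at 6 weeks (-3.96 to 1.43, exact p = 0.295). The 1 week value passed the threshold when sham mouse 2354, at -15.18, was left out (exact p = 0.0260), and in no other case of leaving out 1 mouse. P+eMSC stood at -1.74 from sham at 1 week (-3.94 to 2.22, exact p = 0.259) and at -0.22 at 6 weeks (-3.84 to 2.95, exact p = 0.945), and at 0.48 and 0.95 from P (exact p = 0.628 and 0.383). With the panel median as reference the 6 week shift of P from sham was 0.24.

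**Figure D2:**
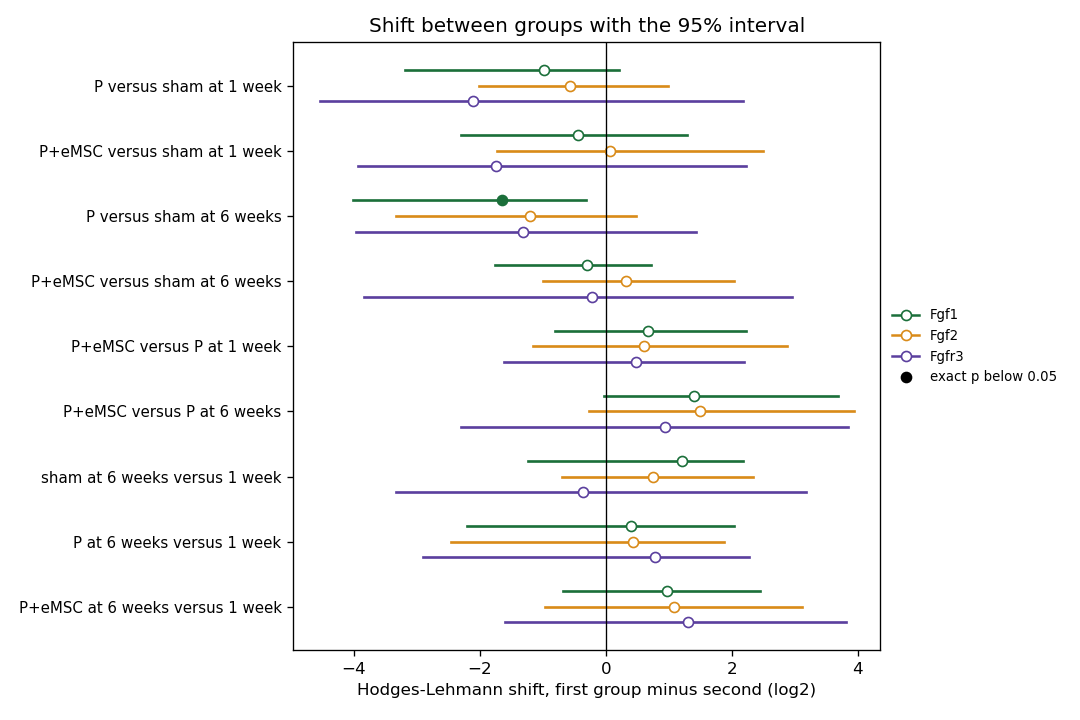
Hodges-Lehmann shift (log2) of each gene between the first and the second group named, with its 95% interval, for 9 comparisons. Filled points passed the exact test at an unadjusted p below 0.05, which *Fgf1* in P versus sham at 6 weeks did at -1.65, and the intervals of *Fgfr3* are the widest in most comparisons.

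*Fgfr3* in the sham controls was lower in mice numbered above 2000 than in most of those below 1000. At 6 weeks the 4 sham mice numbered below 1000 lay between -10.05 and -7.06 and the other 2, numbered above 2000, at -12.80 and -12.01, with no overlap. At 1 week the 5 sham mice below 1000 lay between -11.67 and -7.49, and those above 2000 were at -15.18 and -11.04. The comparison of P with sham ran in opposite directions in the series. At 6 weeks the P mice numbered below 1000 lay between -15.97 and -10.58, below every sham mouse of that series, with a shift of -3.02 (4 against 4, exact p = 0.0286, the smallest these mice allow). In that subset 10 of the 52 genes that had 4 or more values on both sides passed, or 19.2%, all lower in P. Mouse 52 is among the P mice there for the genes it had a Ct for, but not for *Fgfr3*. Among mice above 2000 the 3 P mice, between -10.83 and -9.90, lay above both sham mice, with a shift of 2.04 (exact p = 0.2, again the smallest possible). At 1 week the shift was -4.23 below 1000 (2 against 5, exact p = 0.0952, the smallest these mice allow) and 2.41 above 2000 (4 against 2, exact p = 0.8).

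The difference between the series was itself tested in limma over all genes, a test chosen after these values had been seen. For *Fgfr3* the shift of P from sham was lower below 1000 than above 2000 with a difference of -5.77 ± 2.31 (log2, SE) at 1 week and of -5.71 ± 2.22 at 6 weeks, with unadjusted p of 0.0171 and 0.0140 and adjusted p of 0.462 and 0.151, so that neither passed after adjustment. For *Fgf1* the same difference was 0.50 ± 1.77 and 1.20 ± 1.70, and for *Fgf2* it was -0.12 ± 1.80 and 0.58 ± 1.73. Over the panel, 2 genes at 1 week and 10 at 6 weeks had an unadjusted limma p below 0.05 and none an adjusted one. The median difference of all 54 genes was -0.61 at 1 week and -3.38 at 6 weeks. The 6 week panel values include the low levels of mouse 52, numbered below 1000, for the 23 genes it had a Ct for. Mouse 52 has no value for *Fgf1*, *Fgf2* or *Fgfr3*, and the panel difference without it was not tested. In P+eMSC against sham at 1 week the difference was below 0 for all 3 genes, -2.61 ± 1.66 (SE) for *Fgf1*, -2.95 ± 1.70 for *Fgf2* and -3.78 ± 2.17 for *Fgfr3*, with unadjusted p of 0.125, 0.0906 and 0.0904 and an adjusted p of 0.538 each, beside a panel median of -0.90. Over both series the shifts of *Fgf1* and *Fgf2* were -0.44 and 0.07, whereas within the series all 3 genes had shifts of opposite sign. Below 1000, with 4 against 5 mice, they were -1.23 for *Fgf1* (exact p = 0.190), -0.97 for *Fgf2* (exact p = 0.286) and -2.90 for *Fgfr3* (exact p = 0.190). Above 2000, with 3 against 2, they were 1.04 (exact p = 0.8), 2.10 (exact p = 0.2, the smallest possible) and 1.44 (exact p = 0.8). At 6 weeks the difference in P+eMSC against sham was 0.27 ± 1.77 for *Fgf1*, 0.30 ± 1.80 for *Fgf2* and -2.77 ± 2.31 for *Fgfr3*, beside a panel median of -1.67.

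*Cdh1*, an adhesion molecule of epithelial cells, was the gene that kept closest to *Fgfr3*. Of the 53 other genes it had the most constant Ct difference to *Fgfr3*, with an SD of 1.34 over 40 mice, although *Cdh1* itself had an SD within groups of 3.14 and ranked 52nd of 54. The next were *Cdh2*, another cadherin (1.61), and *Ctgf*, a matrix-associated growth factor (1.62), and the median over the panel was 2.01. Both genes share the mouse and its RNA, and the Ct difference does not use 18S. Sham mice at 6 weeks had *Cdh1* levels between -9.62 and -6.90 below 1000 and of -14.03 and -13.97 above 2000, so that the sham mice above 2000 were the low ones in both genes. The shift of *Cdh1* in P from sham at 6 weeks was -2.30 below 1000 (4 against 4, exact p = 0.0571) and 3.51 above 2000 (3 against 2, exact p = 0.2, the smallest these mice allow). The lowest *Fgfr3* mouse of all, mouse 53 at -15.97, was also the lowest for *Cdh1* at -18.99, and the highest, mouse 2351 at -6.74, was the highest for *Cdh1* at -5.95. The *Cdh1* level relative to *Fgfr3* stood at a shift of 0.73 in P against sham at 6 weeks (95% interval -1.34 to 2.45) and 0.99 at 1 week (-0.90 to 2.29). *Cdh1* was the only epithelial marker listed for the panel, and the part of the amount of epithelium in the *Fgfr3* values was not tested.

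**Figure D3:**
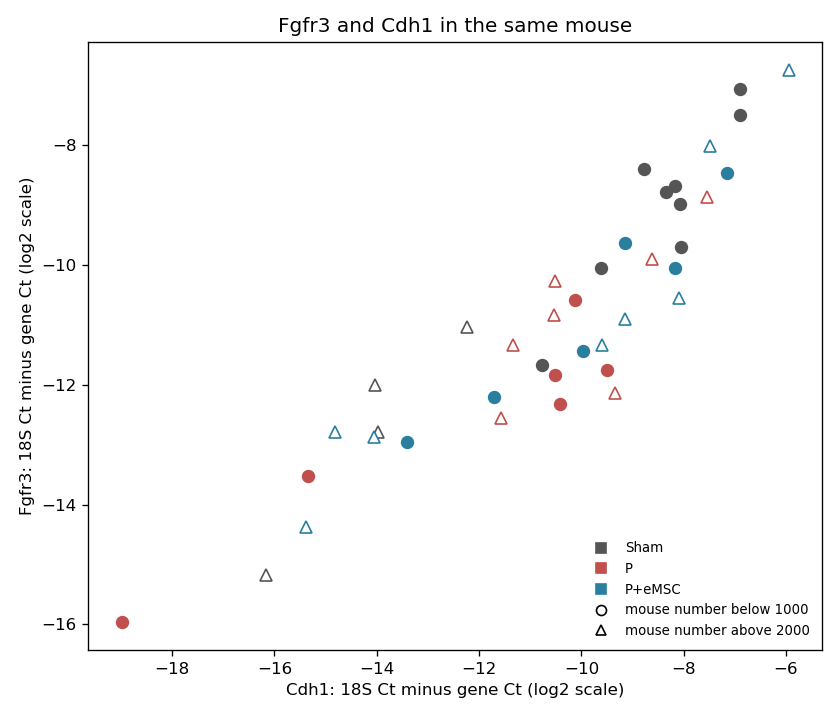
Level of *Fgfr3* against that of *Cdh1* in the same mouse, each as 18S Ct minus gene Ct on the log2 scale, in 40 mice. Colours mark treatment, filled circles mice numbered below 1000 and open triangles those above 2000. The points run from mouse 53 at -18.99 and -15.97 to mouse 2351 at -5.95 and -6.74, and 3 of the 4 sham mice above 2000 lie at or below -12.01 for *Fgfr3*.

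*Fgf1* and *Fgf2* kept close to each other in every mouse but mouse 400, which their Ct difference shows without any reference gene. In the other 39 mice *Fgf1* relative to *Fgf2* lay between -1.19 and 1.65, with a median of -0.17 and an SD of 0.56 (log2). Mouse 400 stood at 5.39, and with it the SD over 40 mice was 1.03. The SD within groups, also with mouse 400, was 1.03 for the difference and 1.34 and 1.40 for the genes themselves. In that mouse *Fgf2* deviated from its sham group median by -2.27, the lowest of 54 genes, and *Fgf1* by 3.20, while the median deviation of the panel was 0.31. *Fgf1* relative to *Fgf2* shifted by -0.54 in P against sham at 6 weeks (95% interval -1.57 to 0.07) and by -0.75 in P+eMSC against sham (-1.68 to 0.16), and by -0.09 between P+eMSC and P (-0.71 to 0.46). At 1 week the shifts were -0.24 (-1.48 to 0.57), -0.12 (-1.14 to 0.64) and 0.05 (-0.58 to 0.56). Each interval held 0. *Fgf1* relative to *Fgfr3* ranged much more widely, from -2.76 to 5.60 with an SD of 2.22 over 40 mice, and its shift in P against sham at 6 weeks was -0.34 (-3.33 to 3.14).

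**Figure D4:**
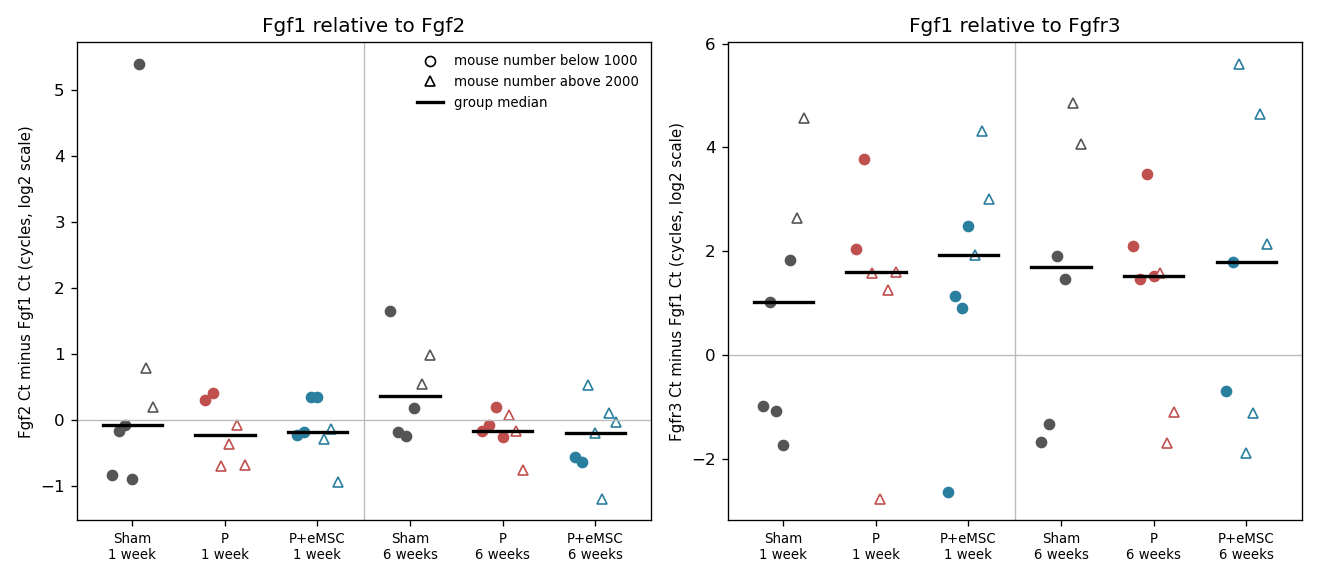
Ct difference within each mouse, *Fgf1* relative to *Fgf2* (left) and relative to *Fgfr3* (right), in cycles on the log2 scale, where a higher value is more *Fgf1*. Symbols and bars are as in the plot of levels. Apart from mouse 400 at 5.39 the left values lie between -1.19 and 1.65, while the right values run from -2.76 to 5.60.

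The genes with the most constant Ct difference to the ligands were for the most part other growth and vessel factors. For *Fgf1* they were *Vegfa*, the vascular endothelial growth factor (SD 0.56 over 40 mice), *Ang1*, angiopoietin-1 (0.73), and *Tgfb3*, a transforming growth factor (0.77), against a panel median of 1.65. For *Fgf2* they were *Ang1* (0.70), *Tgfb3* (0.82) and *Timp3*, an inhibitor of matrix proteinases (0.86), against 1.64. Such an SD also depends on how much each gene varied by itself. *Ang1* was the 3rd least variable of the 54 genes within groups (SD 1.28), *Tgfb3* the 15th, *Vegfa* the 18th and *Timp3* the 24th. The spreads of *Tgfb3*, *Vegfa* and *Timp3* include mouse 52. Without mouse 400, the SD of *Fgf1* to *Ang1* was 0.44 and that of *Fgf2* to *Timp3* 0.71. The SD of *Fgf2* to *Fgf1* then fell from 1.03 to 0.56 and that to *Vegfa* from 1.13 to 0.63. Both lay below the SD of *Fgf2* to *Tgfb3*, 0.70 without mouse 400, and to *Timp3*. The SD of *Fgf1* to *Tgfb3* was 0.66 without mouse 400, above the 0.56 of *Fgf1* to *Fgf2*. The genes named as closest to *Fgf2*, and *Tgfb3* among those named for *Fgf1*, thus depend on mouse 400. In mouse 400 the *Vegfa* level was the highest of the sham group, as that of *Fgf1* was, and deviated from the group median by 3.26. *Vegfa* relative to *Fgf1* shifted by -0.17 in P against sham at 6 weeks (95% interval -0.98 to 0.81) and by 0.21 in P+eMSC against P (-0.89 to 0.92).

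Of 11 other growth and angiogenic factors listed for the panel, 10 were in the table. In P against sham at 6 weeks 5 of the 10 were lower at an unadjusted exact p below 0.05 and none was higher, where 22.2% of the panel passed, with a median shift of -1.36 beside -0.83 for all 54 genes. *Pdgfa*, a platelet-derived growth factor, fell by 1.48 (exact p = 0.00466), *Tgfb3* by 2.07 and *Vegfa* by 2.54 (both exact p = 0.00799), each with an adjusted p of 0.0551. Mouse 52 had a Ct for 4 of the 10 genes and enters these comparisons with the low levels of -18.46 for *Tgfb3* and -16.94 for *Vegfa*, but has no value for *Pdgfa*. Without it the shifts were -1.92 and -2.25 (both exact p = 0.0140, adjusted 0.0944), and 5 of the 10 genes and 12 of the panel passed. In P+eMSC against P at 6 weeks 4 of the 10 were higher, where 18.5% of the panel passed, with a median shift of 1.28 beside 1.15 for the panel, among them *Tgfb3* at 2.24 (exact p = 0.00932), *Pdgfa* at 1.17 (exact p = 0.0175) and *Vegfa* at 1.92 (exact p = 0.0205), each with an adjusted p of 0.158. Without mouse 52 *Tgfb3* stood at 1.72 (exact p = 0.0175) and *Vegfa* at 1.63 (exact p = 0.0379), with 4 of the 10 genes and 8 of the panel passing. At 1 week *Vegfa* and *Pdgfa* were lower in P than in sham, by shifts of -1.13 (exact p = 0.00816, adjusted 0.441) and -1.10 (exact p = 0.0350, adjusted 0.791). They were the only 2 of the 54 genes called in that comparison, 3.7% of the panel, and neither passed at an adjusted p or in limma. The median shift of the 10 was -0.72 beside -0.10. None of the 10 passed in P+eMSC against sham at either week, where the *Fgf1* and *Fgf2* intervals also held 0. These comparisons share their sham or P mice and are not independent of each other.

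Over time the ligands had higher medians at 6 weeks than at 1 week in each treatment, but neither they nor the receptor passed the test. The shift of *Fgf1* from 1 to 6 weeks was 1.20 in sham (95% interval -1.23 to 2.17, exact p = 0.234), 0.40 in P (-2.21 to 2.03, exact p = 0.836) and 0.97 in P+eMSC (-0.68 to 2.44, exact p = 0.318). That of *Fgf2* was 0.76 in sham (-0.70 to 2.34, exact p = 0.181), 0.43 in P (-2.45 to 1.88, exact p = 0.731) and 1.08 in P+eMSC (-0.97 to 3.11, exact p = 0.259). For *Fgfr3* the shifts were -0.36 in sham (-3.33 to 3.17, exact p = 0.836), 0.78 in P (-2.90 to 2.28, exact p = 0.366) and 1.31 in P+eMSC (-1.60 to 3.82, exact p = 0.383). In sham mice 2 of the 54 genes passed, *Tgfb2* and *Tgfb3*, or 3.7%, and in P and P+eMSC none did, 0% each. The panel median shifts were 0.51, -0.50 and 0.88, that of P with mouse 52 where it had a Ct. The change of P against sham from 1 to 6 weeks was -0.80 ± 1.15 (SE) for *Fgf1*, -0.96 ± 1.18 for *Fgf2* and 0.05 ± 1.66 for *Fgfr3* in the limma interaction, with adjusted p of 0.736, 0.736 and 0.987. That of P+eMSC against sham was 0.13 ± 1.12, 0.12 ± 1.16 and 0.88 ± 1.63, each with an adjusted p of 0.999. The panel medians of these changes were -1.35 for P against sham, with mouse 52 where it had a Ct, and 0.38 for P+eMSC against sham. No gene of the panel passed any of the interactions, at an adjusted or an unadjusted limma p below 0.05.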

How the data were processed

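RNA from the skin of 41 mice was extracted with the RNeasy kit, preamplified with TaqMan assays and run on a Fluidigm dynamic array. The authors deposited a table of Ct values (threshold cycles, no normalization, 999 or null where undetected) and a second table of fold change ratios made by the ΔΔCt method from 18S and the sham controls. Tests used the Ct values, and the 117 deposited fold changes of the members that could be compared lay within 2.97e-08 (log2) of the calculated ones, apart from mouse 2356. A Ct has no read depth, so the number of mice limits the precision.

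Groups came from the deposited labels. A two-sided Mann-Whitney U test with exact p was run on 18S Ct minus gene Ct for every gene with at least 4 values in each group, called at an unadjusted p below 0.05, with Benjamini-Hochberg values over all 54 genes beside it. The study's methods, which state no adjustment for P against P+eMSC, call a p of 0.0513 or less, and this was run as an alternative chosen after seeing the data. Undetected values were left out. Interactions with the week were fitted in limma over all groups and called at an adjusted p below 0.05. Each p-value judges a difference between groups against the spread between mice, which are the replicates. The members and gene lists were chosen with earlier results of these data known. Named were the members, for each of them the 3 genes with the smallest SD of the Ct difference, the listed growth and angiogenic factors by counts with at most 3 examples of lowest p per comparison, and cell type markers.

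Names were matched to RefSeq GRCm38.p6, 52 as symbols and *Ctgf* as a synonym, with *Ang1* and 18S kept as the table and methods give them. By its spelling *Ang2* was among the 52, although its assay was taken here as angiopoietin-2, whose symbol is *Angpt2*. The tests were checked on simulated data. Analyses ran in R 4.3.3 (limma 3.58.1) and Python 3.11.15 (pandas 2.3.3, numpy 2.4.6, matplotlib 3.10.9, scipy 1.17.1). Alternatives were the panel median as reference, undetected values ranked 0.01 below the lowest, an adjusted threshold, limma, permutation within the series of mouse numbers, mouse 2356 counted at 1 week, and leaving out each mouse in turn.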

Additional observations from a re-analysis of the deposited data

Results flagged for a closer look

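Of 36 groups of values examined, 6 for each of the 3 genes and for each of the 3 Ct differences between them, 3 held a mouse farther from the others than Dixon's 95% limit allows, which chance does for about 1 group in 20. In the P group at 6 weeks, mouse 53 had an *Fgfr3* level of -15.97, while the other 6 mice lay between -11.84 and -9.90. In the sham group at 1 week, mouse 400 had *Fgf1* at 5.39 relative to *Fgf2*, while the others lay between -0.90 and 0.79. In the P group at 1 week, mouse 2308 had *Fgf2* at -2.39 relative to *Fgfr3*, while the others lay between 1.35 and 3.38.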

How the results depend on the processing

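The cause of the changes listed here was not tested. The panel median used as reference was that of the 23 genes detected in every mouse. With the panel median of the mouse as the reference, which moves the median shift of all 54 genes from -0.83 to 0.26 for P against sham at 6 weeks and from 1.15 to -0.25 for P+eMSC against P, the call of *Fgf1* in P against sham at 6 weeks was lost (-0.92). These values changed sign under that reference: *Fgf1* in P+eMSC against sham at 1 week (0.28) and in P+eMSC over time (-0.15), *Fgf2* in sham over time (-0.021), *Fgfr3* in P against sham at 6 weeks (0.24), and the limma changes between the weeks of *Fgf1* in P against sham (0.021), in P+eMSC against sham (-0.23) and in P+eMSC against P (-0.25), of *Fgf2* in P+eMSC against sham (-0.24) and against P (-0.10), and of *Fgfr3* in P+eMSC against P (-0.35). None of them had passed a test. At an adjusted threshold the *Fgf1* shift of -1.65 in P against sham at 6 weeks no longer passed.

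With undetected values ranked lowest, P+eMSC against P at 6 weeks passed for *Fgf1* (1.83) and *Fgf2* (1.84), as in limma (1.66 and 1.78), and P over time turned for *Fgf1* (-0.18; limma -0.0021) and *Fgf2* (-0.0295; limma -0.025). *Fgfr3* in sham over time turned in limma (0.14), and its change of P against sham between the weeks turned with undetected values lowest (-0.50), with mouse 2356 at 1 week (-0.50) and with the number series as a covariate (-0.14), which also turned *Fgf2* in the change of P+eMSC against sham (-0.023). Of the 27 shifts, 22 kept direction and call with the panel median and 22 in limma. So did 23 with undetected values lowest and all 15 touched with mouse 2356 at 1 week. Permutation within the series changed no call and cannot turn the shifts it reuses.

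Leaving out each mouse in turn, the following ranges held a changed call or direction. They were 1.00 to 1.83 for *Fgf1* and 0.96 to 1.80 for *Fgf2* in P+eMSC against P at 6 weeks, where leaving out P mouse 437 (exact p = 0.0221 for each gene) or P+eMSC mouse 60 (0.0350 for each) brought both past the threshold, and P mouse 121 or P+eMSC mouse 2317 *Fgf2* alone (0.0350 for each), and -2.94 to -1.36 for *Fgfr3* in P against sham at 1 week, where leaving out sham mouse 2354 did. For values that never passed they were -0.20 to 0.63 for *Fgf2* in P+eMSC against sham at 1 week, -0.87 to 0.18 for *Fgfr3* in P+eMSC against sham at 6 weeks, -1.01 to 0.20 for *Fgfr3* in sham over time, and -0.18 to 0.63 for *Fgf1* and -0.0295 to 0.81 for *Fgf2* in P over time. For the changes between the weeks they were -0.50 to 0.88 for *Fgfr3* in P against sham, and -0.33 to 0.50 for *Fgf1* and -0.34 to 0.63 for *Fgf2* in P+eMSC against sham.

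The 12 panel genes called in P against sham at 6 weeks became 2 at an adjusted threshold and 6 with the panel median, and ran from 12 to 18 with a mouse left out. The 10 in P+eMSC against P became 0 and 2, and ran from 7 to 17, the highest without P+eMSC mouse 60 or 2210. The 2 in P against sham at 1 week became 0 at an adjusted threshold and in limma, as did the 2 in sham over time, which became 1 with the panel median, and with a mouse left out they ran from 1 to 4 and from 0 to 5. At the p threshold of the study's methods, chosen as an alternative after seeing the data, no call of *Fgf1*, *Fgf2* or *Fgfr3* changed, and the panel counts became 3 in P against sham at 1 week and 14 at 6 weeks. The counts of 0 became at most 3, and up to 6 in P+eMSC over time without mouse 2358. *Gapdh*, planned as a second reference, was not run because it has no row in the table used here. No paired analysis was possible because each mouse received 1 treatment and has its own number.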
